A study of Homo sapiens with 6 samples.

Results

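The expression of 10 genes that activate, desaturate and esterify fatty acids was compared between control and 4HC-treated COV434 cells. The genes were ACSL1, ACSL3, ACSL4, ACSL5, ACSL6, LPCAT3, SCD, FADS1, FADS2 and FASN, taken by symbol from the 16798 coding genes of the deposited gene table, and all 10 were found there. The authors describe COV434 as an immortalized human granulosa cell (GC) line, and the labels call it wild type. 4HC is the active metabolite of cyclophosphamide (CTX), an alkylating drug. Bulk RNA-seq was done on 3 control samples and on 3 samples titled CTX. The labels attach the same treatment text, 15 µM 4HC for 24 h, to all 6 samples, so that the groups rest on the titles alone, and the samples titled CTX are called the 4HC group. The labels name no vehicle for the controls and do not say whether the 3 samples of a group came from separate cultures, so that p-values measure only the spread between these samples, which may be technical.

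Long-chain acyl-CoA synthetases (the ACSL family) join free fatty acids to coenzyme A, which is required before a fatty acid can be built into a phospholipid, stored or oxidized. FASN builds saturated fatty acids, SCD converts them to monounsaturated ones, and FADS2 and FADS1 act in turn on dietary polyunsaturated fatty acids to give products such as arachidonic acid. LPCAT3 places polyunsaturated acyl chains into lysophospholipids. Phospholipids with polyunsaturated chains are the main targets of lipid peroxidation in ferroptosis, an iron-dependent form of cell death, and ACSL4 and LPCAT3 are known for supplying them, while monounsaturated chains made by SCD are less easily oxidized.

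The 250 bases upstream of the RefSeq start site are shown for 2 genes that fell in the 4HC group, SCD and ACSL3, and for 2 that rose, LPCAT3 and FADS1, because these are members with changes in opposite directions and a unique start in the RefSeq table (GRCh38.p14). Each is written 5′ to 3′ on the strand of the gene, and capitals mark the CCAAT box (CCAAT) and the GC box (GGGCGG), searched on both strands.
SCD, chr10:100346983-100347232, plus strand: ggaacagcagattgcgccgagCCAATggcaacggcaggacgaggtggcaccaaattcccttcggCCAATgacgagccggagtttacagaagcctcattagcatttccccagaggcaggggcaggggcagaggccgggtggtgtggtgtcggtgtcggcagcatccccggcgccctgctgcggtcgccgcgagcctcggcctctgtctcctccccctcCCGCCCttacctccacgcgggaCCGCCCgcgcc
ACSL3, chr2:222860786-222861035, plus strand: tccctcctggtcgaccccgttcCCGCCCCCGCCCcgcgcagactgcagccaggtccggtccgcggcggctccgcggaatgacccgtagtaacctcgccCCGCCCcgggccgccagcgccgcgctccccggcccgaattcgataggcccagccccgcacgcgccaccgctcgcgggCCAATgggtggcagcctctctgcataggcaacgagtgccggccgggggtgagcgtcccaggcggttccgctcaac
LPCAT3, chr12:7018477-7018726, minus strand: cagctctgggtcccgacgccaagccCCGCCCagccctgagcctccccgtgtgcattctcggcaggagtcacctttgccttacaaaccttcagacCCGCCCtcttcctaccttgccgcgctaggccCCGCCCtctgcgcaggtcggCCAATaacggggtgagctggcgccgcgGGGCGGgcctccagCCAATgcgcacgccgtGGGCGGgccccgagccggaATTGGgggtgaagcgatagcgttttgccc
FADS1, chr11:61817004-61817253, minus strand: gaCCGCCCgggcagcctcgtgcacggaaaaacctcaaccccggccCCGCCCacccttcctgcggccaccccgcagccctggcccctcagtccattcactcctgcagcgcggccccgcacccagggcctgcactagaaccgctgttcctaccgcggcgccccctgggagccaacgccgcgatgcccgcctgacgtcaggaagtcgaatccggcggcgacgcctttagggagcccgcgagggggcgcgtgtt
The CCAAT box was present in the windows of SCD, ACSL3 and LPCAT3, with 2, 1 and 3 matches, and not in that of FADS1, and GC boxes numbered 2, 3, 5 and 2 in the windows of SCD, ACSL3, LPCAT3 and FADS1. Of the 35116 upstream windows of the same length in the table, 32% held CCAAT and 42.6% held GGGCGG. The letters CACGTG (6.34% of all windows) and TCACNCCAC (0.883%), motifs searched for in the same way, were not in these 4 windows. In windows of other members that are not printed, TCACNCCAC was found for ACSL1 and ACSL6, which have several windows each. GC boxes were thus found in the windows of falling and of rising genes. Of the 10 members, 9 had an entry in the table, and FASN had none.

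Total expected counts lay between 16133786 and 16702316 per sample. The 10 genes together held 0.431%, 0.431% and 0.411% of the counts in the 3 control samples and 0.372%, 0.354% and 0.377% in the 3 4HC samples. Most of each sum was SCD, with 0.292%, 0.291% and 0.274% in control and 0.246%, 0.232% and 0.256% in 4HC. The sums thus mainly follow this gene. Levels between samples are given below as CPM (counts per 1e+06 counts of the library, normalized by the TMM method), and levels between genes as the deposited TPM (a share of all transcripts, which takes their length into account). Of the granulosa markers, HSD17B1 (12 to 15.5 CPM), which makes estradiol, and AMH (3.8 to 6.53 CPM), the anti-Müllerian hormone, were detected in every sample, and INHA reached 1.17 CPM. INHBA stayed between 0.121 and 0.905 CPM. FOXL2, FSHR, CYP19A1, NR5A1 and STAR did not exceed 0.185 CPM in any sample. These defining markers of mature granulosa cells were thus at or near 0. AMHR2 was not among the genes of the deposited gene table. The fibroblast markers DCN and LUM lay between 42.9 and 67.7 CPM, and the summed fibroblast list was 112 to 121 CPM in control and 110 to 121 CPM in 4HC. The sum of the 4 epithelial markers was 5.79 to 8 CPM and 7.24 to 7.65 CPM, that of the 2 leukocyte markers measured 2.96 to 3.26 CPM and 3 to 4.65 CPM, and that of the 3 endothelial markers 0 to 0.123 CPM and 0.0604 to 0.185 CPM, in control and 4HC. No marker tested had an adjusted p under the threshold (edgeR).

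Of the 10 genes, ACSL5 had too few counts to be tested, and 9 were tested among 12368 genes with edgeR's quasi-likelihood test. At a Benjamini-Hochberg adjusted p under 0.05, ACSL6, LPCAT3 and FADS1 were upregulated and ACSL3, SCD and FASN were downregulated, and ACSL1, ACSL4 and FADS2 did not pass the test. These 6 calls among 9 tested genes (66.7%) stand beside a background of 36.4% of all genes tested. Genes with a mean of at least 20 CPM were called more often, at 44%. In either direction the calls compare with backgrounds of 19.2% (higher) and 17.1% (lower), and 6 of the 9 genes had groups that did not overlap in CPM, against 45.3% of all genes. The median log2 fold change of the 9 genes was 0.004, beside 0.005 over all genes tested, with 3 genes called in each direction. The median of the 9 genes is the value of ACSL1, and that of all genes is set near 0 by the normalization. At a fold change of at least 2 with an unadjusted p under 0.05, only ACSL6 of the 9 was a DEG, and 1.15% of all genes were DEGs by this rule. Since the RNA came from bulk cultures, fewer cells with a transcript and less of it per cell cannot be told apart.

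**Figure D1:**
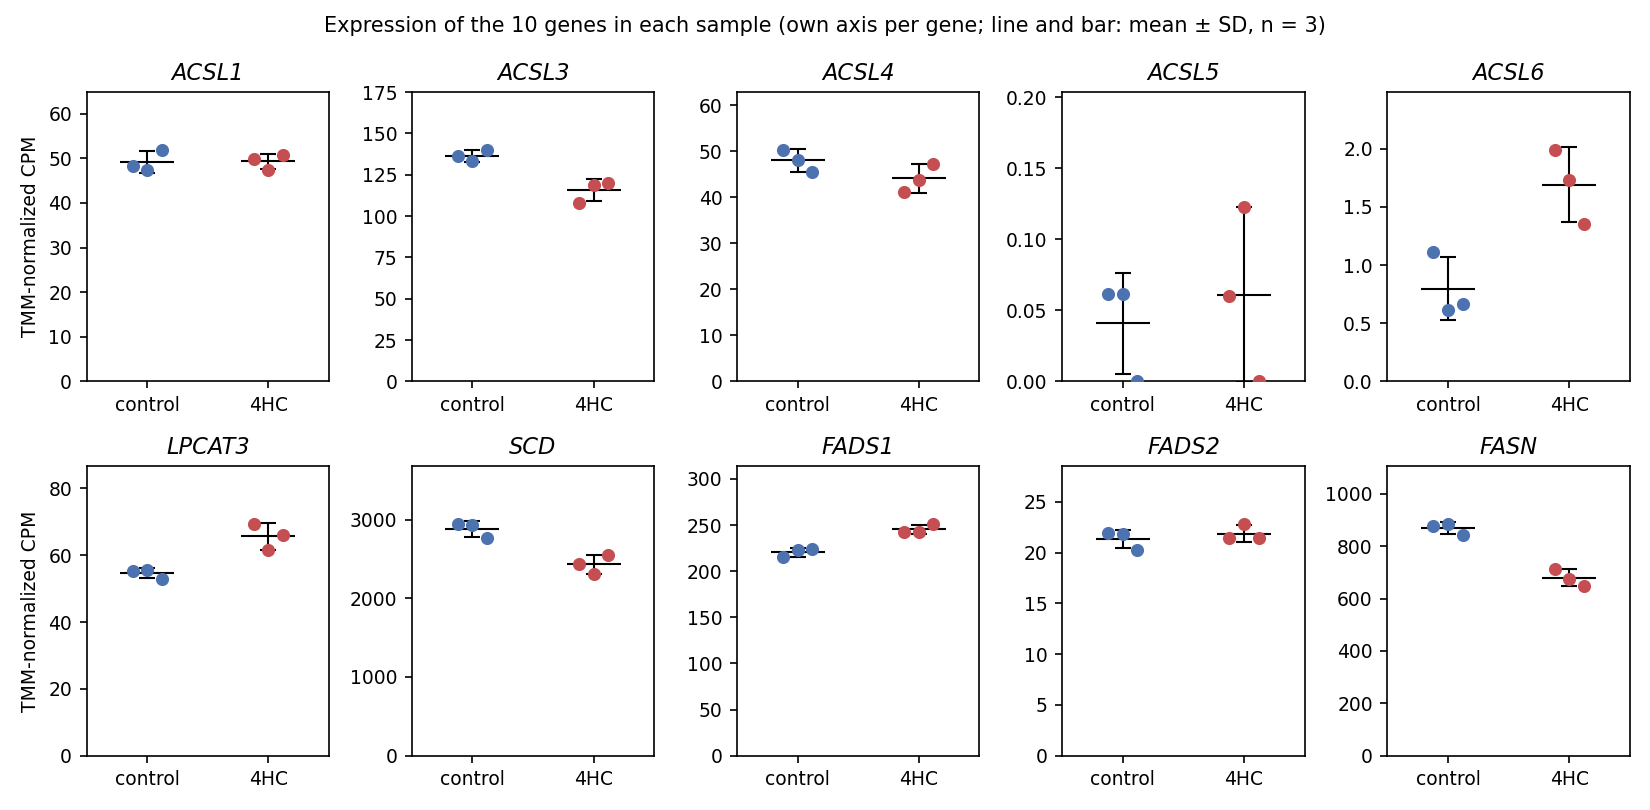
TMM-normalized CPM (vertical axes, one scale per gene, starting at 0) of the 10 genes in the 3 control samples (blue) and the 3 4HC samples (red), with the mean and SD as line and bar. The groups are separate in ACSL3, ACSL6, LPCAT3, SCD, FADS1 and FASN and overlap in ACSL1, ACSL4, ACSL5 and FADS2.

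By TPM the order of the 10 genes was the same in both groups: SCD, FASN, FADS1, LPCAT3, ACSL3, ACSL1, ACSL4, FADS2, ACSL6 and ACSL5. The ranges of neighbours in this order did not overlap within either group. The closest pair was LPCAT3, with a lowest control value of 42.6 TPM, and ACSL3, with a highest control value of 42.1 TPM. SCD stood far above the other genes, with a level of 908 ± 27 TPM (SD, n = 3) in control and 763 ± 41.5 TPM in 4HC.

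Within the ACSL family, ACSL3 carried the largest level and was the only member called lower, while ACSL4 had a lower mean in 4HC without a call. ACSL3 (chr2:222861036-222944639, GRCh38), an enzyme of the endoplasmic reticulum and of lipid droplets, was at 136, 133 and 140 CPM in control and at 108, 119 and 120 CPM in 4HC. All 4HC samples lay below all control samples. Its log2 fold change was -0.23 (standard error 0.0411, 95% interval -0.32 to -0.15, edgeR adjusted p = 7.4e-06), a level 15% lower.

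ACSL1 (chr4:184743240-184826593), which serves triglyceride synthesis and oxidation in many tissues, was at 48.3, 47.4 and 51.9 CPM in control and at 49.9, 47.4 and 50.7 CPM in 4HC. The groups overlapped throughout. The interval of its log2 fold change ran from -0.10 to 0.11 (edgeR adjusted p = 0.961).

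ACSL4 (chrX:109629350-109733325), which prefers arachidonic acid and is known as a determinant of sensitivity to ferroptosis, was at 50.3, 48.2 and 45.5 CPM in control and at 41.2, 43.8 and 47.3 CPM in 4HC. The groups overlapped through control replicate 3 and 4HC replicate 3. The log2 fold change was -0.12 (standard error 0.0555, 95% interval -0.23 to -0.01), with an unadjusted p of 0.033 and an edgeR adjusted p of 0.0807. Without control replicate 3 it was -0.16 (edgeR adjusted p = 0.0477), and without 4HC replicate 3 it was -0.17 (edgeR adjusted p = 0.0183), so that the call depended on these 2 samples, and over 15 alternatives the adjusted p ranged from 0.0183 to 0.327.

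ACSL6 (chr5:131915602-132015526), known mainly from brain and testis, was expressed at a very low level. Its expected counts were 18.1, 10 and 11 in control and 33.3, 28.3 and 22 in 4HC. All 4HC samples were higher than all control samples, on a base of few reads. ACSL6 was at 0.796 ± 0.272 CPM in control and 1.69 ± 0.324 CPM in 4HC (SD, n = 3), with a log2 fold change of 1.08 (standard error 0.288, 95% interval 0.50 to 1.66, edgeR adjusted p = 0.00236). On log2 of TPM with a pseudocount of 1 the adjusted p of ACSL6 was 0.0616 (limma), with a log2 fold change of 0.24. A pseudocount of 1 understates the change of low genes. Over 15 alternatives the adjusted p ranged from 0.000676 to 0.0616. Over all its transcripts in the GENCODE annotation, ACSL6 shares 2009 exon bases with AC026398.1 on the same strand, so that its counts are uncertain. The overlap of the transcripts counted was not measured.

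ACSL5 (chr10:112374116-112428376), known from intestine and liver, had 1, 1 and 0 counts in control and 1, 2 and 0 counts in 4HC. It was near the limit of detection in both groups, where a count of 0 in a library allows up to 3 counts, and no fold change is given.

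**Figure D2:**
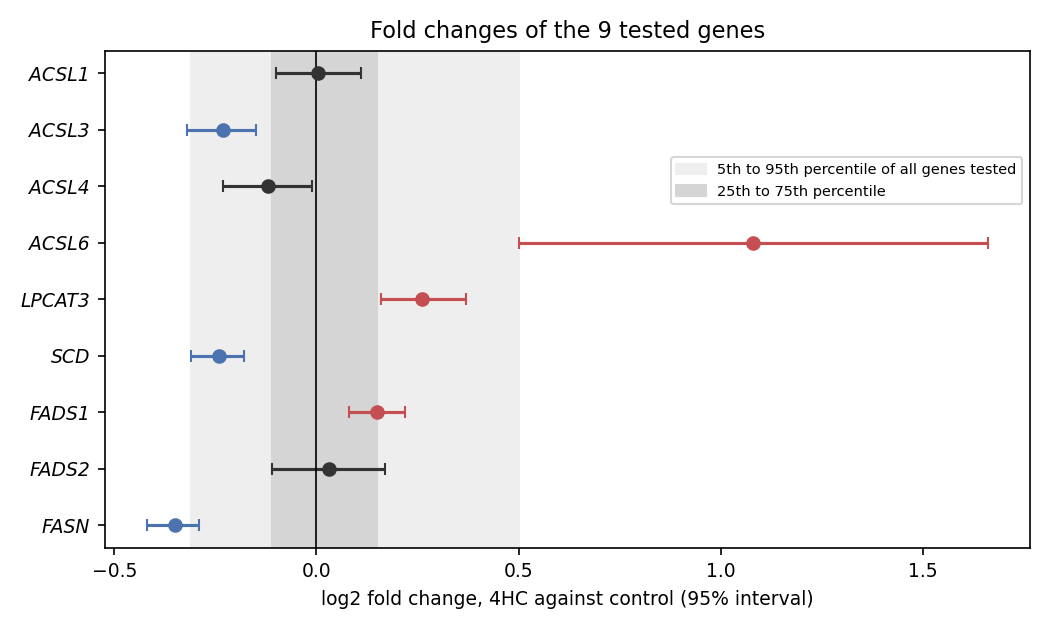
Log2 fold change of 4HC against control (horizontal axis) of the 9 tested genes with 95% intervals as bars, red for genes called higher, blue for genes called lower and dark grey for genes not called, over bands for the percentiles of all genes tested. FASN at -0.35 lies below the 5th percentile (-0.31) and ACSL6 at 1.08 above the 95th (0.50), and the others lie between.

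The summed TPM of the ACSL family was 80.7, 78 and 82 in control and 70.2, 72.2 and 75.6 in 4HC. ACSL3 made up 50.5%, 50.6% and 51.3% of this sum in control and 46.3%, 48.6% and 47.4% in 4HC. Every 4HC sample was below every control sample in both measures. The share of ACSL1 was 27.4%, 27.5% and 29.1% in control and 32.5%, 29.7% and 30.5% in 4HC. The share of ACSL4 was 21.8%, 21.7% and 19.4% in control and 20.5%, 21.1% and 21.6% in 4HC. The family was thus made of the same 3 enzymes in both groups, with a smaller share of ACSL3 in 4HC and shares of ACSL4 that overlapped. The TPM ratio of ACSL3 to ACSL4 was 2.43 ± 0.19 in control and 2.25 ± 0.0581 in 4HC (SD, n = 3, two-sided exact permutation p = 0.1, the smallest that 3 against 3 samples can give). Its values were 2.32, 2.33 and 2.65 in control and 2.26, 2.3 and 2.19 in 4HC. Much of the difference thus came from control replicate 3.

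**Figure D3:**
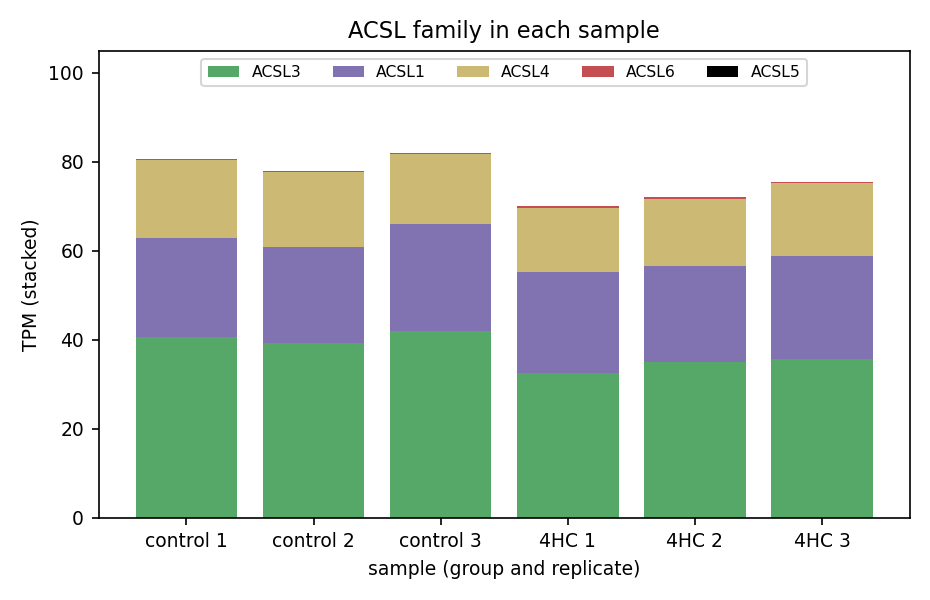
TPM of the ACSL genes stacked for each sample (vertical axis in TPM, horizontal axis with group and replicate). The stacks of the 3 control samples reach 78 to 82 TPM and those of the 3 4HC samples 70.2 to 75.6 TPM, and ACSL3 forms the largest segment in each.

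Both FASN and SCD were downregulated. FASN (chr17:82078338-82098303), the multidomain synthase that makes palmitate, was at 878, 884 and 844 CPM in control and at 714, 676 and 649 CPM in 4HC. All 4HC samples were lower than all control samples. Its log2 fold change was -0.35 (standard error 0.0322, 95% interval -0.42 to -0.29, edgeR adjusted p = 3.65e-13), and 13.1% of all genes tested had a larger absolute log2 fold change.

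SCD (chr10:100347233-100378343), which makes oleate and palmitoleate, was at 2942, 2932 and 2765 CPM in control and at 2434, 2307 and 2554 CPM in 4HC. The groups were separate. The log2 fold change of SCD was -0.24 (standard error 0.0312, 95% interval -0.31 to -0.18, edgeR adjusted p = 7.33e-09). SCD ranked 18th of all genes by counts, so that this fold change was a mean difference of -448 CPM, the 7th largest fall in CPM among the genes tested. The corresponding difference of FASN was -189 CPM, the 29th largest.

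Of the desaturases of polyunsaturated fatty acids, FADS1 rose and FADS2 did not pass the test. FADS1 (chr11:61799627-61820899), which forms arachidonic acid in the last desaturation step, was at 215, 223 and 224 CPM in control and at 243, 242 and 251 CPM in 4HC. All 4HC samples were above all control samples. The log2 fold change was 0.15 (standard error 0.0346, 95% interval 0.08 to 0.22, edgeR adjusted p = 0.000374), close to the 75th percentile of all genes tested (0.15).

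FADS2 (chr11:61816203-61867957), the rate-limiting desaturase of this route, was at 21.9, 21.8 and 20.3 CPM in control and at 21.4, 22.8 and 21.4 CPM in 4HC. The groups overlapped. The 95% interval of its log2 fold change was -0.11 to 0.17 (edgeR adjusted p = 0.736). FADS1 and FADS2 lie on opposite strands and share 490 exon bases in the GENCODE annotation, and whether the counting used strand is not given in the sources used here. FADS2 also shares 49 exon bases with FEN1, a DNA repair nuclease, which rose by 0.46 on the log2 scale (standard error 0.0395, edgeR adjusted p = 5.93e-14). The part of these shared bases in the values of FADS1 and FADS2 was not tested.

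Of the paralogs of the desaturases, SCD5 changed in the direction opposite to SCD, and FADS3 in the same direction as FADS1. SCD5, a second human stearoyl-CoA desaturase, was at 9.92, 10.7 and 11.9 CPM in control and at 17, 17.2 and 18.6 CPM in 4HC. FADS3, which desaturates the sphingoid base of ceramides, was at 8.26, 11.2 and 8.27 CPM in control and at 14.5, 14.7 and 13.6 CPM in 4HC. Both were higher in every 4HC sample than in every control sample. The log2 fold change of SCD5 was 0.70 (standard error 0.0883, edgeR adjusted p = 6.02e-09) and that of FADS3 was 0.63 (standard error 0.101, edgeR adjusted p = 1.51e-06). By TPM, SCD5 (6.26 in control and 10.1 in 4HC) remained far below SCD, which was called in the opposite direction.

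Ratios between members were compared within samples. The TPM ratio of SCD to FADS1 was 11.3, 10.8 and 10.2 in control and 8.24, 7.8 and 8.36 in 4HC. All control values of this ratio were higher than all 4HC values, with a log2 difference of -0.40 (two-sided exact permutation p = 0.1, the smallest possible). The ratio of SCD to FASN was 5.47 ± 0.061 in control and 5.92 ± 0.5 in 4HC (SD, n = 3, exact permutation p = 0.1). Its values were 5.53, 5.47 and 5.41 in control and 5.62, 5.63 and 6.49 in 4HC, so that most of the difference came from 4HC replicate 3. The ratio of FADS1 to FADS2 was 7.01 ± 0.421 and 7.62 ± 0.357 (exact permutation p = 0.2), and that of SCD to ACSL4 was 54.2 ± 1.23 and 49.9 ± 3.31 (exact permutation p = 0.2). With 5 ratios and 3 samples per group, none could reach a p under 0.05.

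LPCAT3 (chr12:6976185-7018508), the acyltransferase that places arachidonate into phosphatidylcholine and phosphatidylethanolamine, was at 55.4, 55.7 and 52.8 CPM in control and at 69.3, 61.5 and 66 CPM in 4HC. All 4HC samples were higher than all control samples. The log2 fold change was 0.26 (standard error 0.0501, 95% interval 0.16 to 0.37, edgeR adjusted p = 2.74e-05). Over all its transcripts in the GENCODE annotation, LPCAT3 shares 3100 of its 4725 exon bases with EMG1, a ribosome biogenesis gene on the opposite strand. Without strand their reads cannot be told apart there. Its main transcript NM_005768 matched a GENCODE transcript of 2268 bases, and the overlap of that transcript with EMG1 was not measured. EMG1 itself went from 68.1 ± 1.82 to 62.4 ± 1.05 CPM (SD, n = 3), a log2 fold change of -0.13 (edgeR adjusted p = 0.0287), opposite in direction to LPCAT3.

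The deposited transcript table held 38 RefSeq transcripts of the 10 genes, of which 21 were tested among 42216 transcripts. Expected counts of transcripts varied far more between samples than those of genes, with a biological coefficient of variation of 0.724 against 0.0277. In edgeR 1 of the 21 was called, NM_004104 of FASN (log2 fold change -0.37, standard error 0.0471, edgeR adjusted p = 0.0322), beside 1.29% of all transcripts, and with any 1 sample left out it was not called. DESeq2 called 5 of them, NM_004104 and XM_011523538 of FASN (adjusted p = 1.09e-12 and 0.00396), NM_005063 of SCD (3.21e-06), NM_005768 of LPCAT3 (0.00341) and NM_013402 of FADS1 (9.09e-05). The share of all transcripts that DESeq2 called was not counted, so that these 5 calls have no background beside them. The 1.29% is the edgeR share. NM_004104 held 88.6% of the FASN counts, and XM_011523538 the other 11.4%. SCD had NM_005063 as its only transcript (6 exons, 359 codons in GENCODE), with an edgeR adjusted p of 0.0813 at the transcript level (up to 0.343 over 10 alternatives). The main transcripts of LPCAT3 (NM_005768, 96.5% of counts, log2 fold change 0.27, edgeR adjusted p = 0.131) and FADS1 (NM_013402, 99.2%, log2 fold change 0.15, edgeR adjusted p = 0.0837) had fold changes close to those of their genes.

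Several genes were split between transcripts. ACSL1 was mostly NM_001995, with 89.9% of its counts and 698 codons. ACSL3 counts went to NM_203372 (57.7%), NM_004457 (36.3%) and NM_001354159 (5.43%). The last was at 159, 176 and 98.2 counts in control and at 72.7, 78.3 and 86.6 counts in 4HC. These groups were separate, but the edgeR adjusted p was 0.294. ACSL4 counts went mainly to NM_001318510 (63.2%) and NM_004458 (25.5%), both of which matched a GENCODE transcript of 670 codons, the short form. NM_001318509, a long form with 711 codons, had 14.7, 37.2 and 0 counts in control and 0 in all 4HC samples. At these counts the presence of this transcript in 4HC was not detectable, and it did not pass the filter on low counts. The XM transcripts of ACSL4, which had counts in 4HC samples, had no codon count, so that their form is not known. FADS2 counts were split between NM_001281501 (54%, 422 codons) and NM_001281502 (44.4%, 413 codons), while NM_004265, with the longest reading frame (444 codons), held 1.64%. No transcript of ACSL6 had counts in all 6 samples. The other tested transcripts were NM_001381884 and NM_001286711 of ACSL1, XM_005262109, XM_011530889 and XM_006724635 of ACSL4, NM_001205248 of ACSL6, XM_024448793 of LPCAT3 and XM_011545022 of FADS1. Each held at most 138 counts in a sample, their log2 fold changes lay between -1.62 and 0.97, and their edgeR adjusted p-values were at least 0.95.

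**Figure D4:**
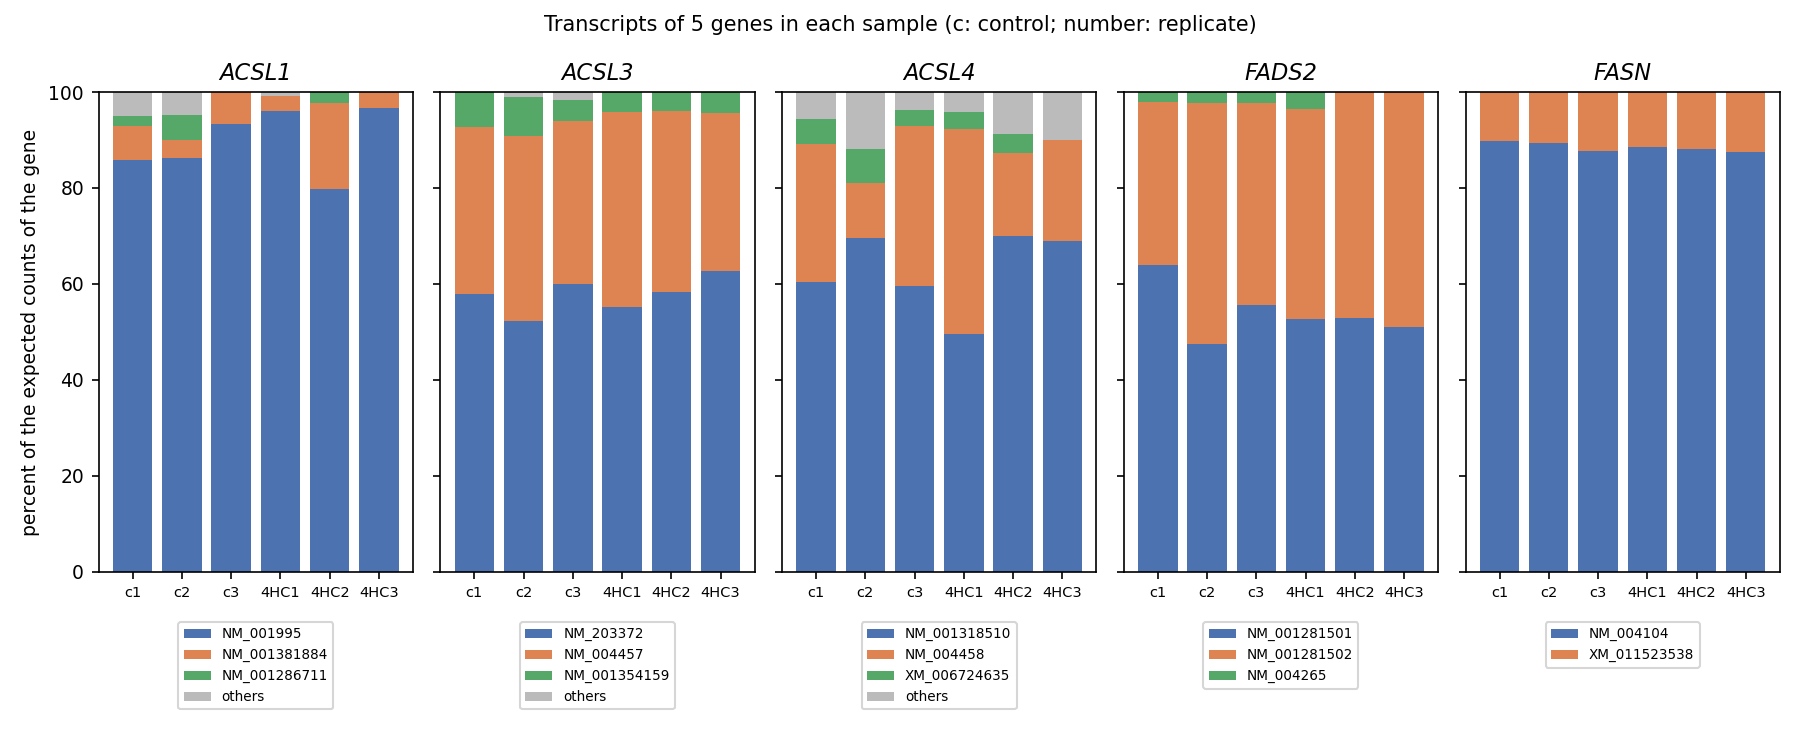
Percent of the expected counts of a gene (vertical axis) held by its most abundant transcripts in each sample (horizontal axis, c for control, number for replicate) for ACSL1, ACSL3, ACSL4, FADS2 and FASN. FASN keeps 87.6% to 89.8% of its counts in NM_004104 in all samples, while the split of ACSL4 and FADS2 varies between samples of 1 group.

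Other lipid genes were grouped in 10 lists, 194 genes of which were tested in all, with 34 higher, 38 lower and 122 not called. The share that edgeR called in each list is to be read against the background of 36.4%. Among genes with a mean of at least 20 CPM, a level that many listed genes reach, the background was 44%. Of the 22 tested genes of fatty acid synthesis and elongation beside the members, 4 rose and 6 fell (45.5% called, median log2 fold change -0.08). Among the genes called, SCD5 and FADS3 had the largest rises, and HACD4, a dehydratase of the elongation cycle, fell from 3.85 ± 0.18 to 2.5 ± 0.209 CPM (SD, n = 3, log2 fold change -0.62, edgeR adjusted p = 0.00441). ACLY, which makes cytosolic acetyl-CoA, and ACACA, which makes malonyl-CoA for FASN, were chosen after their values were seen. ACLY fell from 481 ± 6.03 to 408 ± 26.3 CPM (log2 fold change -0.24, edgeR adjusted p = 2.13e-07) and ACACA from 246 ± 1.63 to 209 ± 8.23 CPM (log2 fold change -0.24, edgeR adjusted p = 2.31e-07). Their counterparts ACSS2, which also makes acetyl-CoA, and ACACB, which also makes malonyl-CoA, were at 0.10 and 0.06 and did not pass the test (edgeR adjusted p = 0.155 and 0.42).

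Among 23 other acyl-CoA synthetases, thioesterases and uptake genes, 4 rose and 3 fell (30.4% called, median 0.01). ACOT2, a mitochondrial thioesterase that reverses the ACSL reaction, rose from 36.3 ± 0.867 to 51.2 ± 2.22 CPM (log2 fold change 0.50, edgeR adjusted p = 1.01e-10). ACOT1, a near copy of ACOT2 whose reads may be split between them, was higher by 0.36 (edgeR adjusted p = 0.000272), and ACBD4, an acyl-CoA binding protein, by 0.30 (edgeR adjusted p = 0.00521), which became 0.19 without 4HC replicate 3 (edgeR adjusted p = 0.113). Among 23 genes of phospholipid acyl chain remodelling beside LPCAT3, 4 rose and 1 fell (21.7% called, median 0.06). MBOAT1, a lysophospholipid acyltransferase of the same family as LPCAT3, rose by 0.62 (edgeR adjusted p = 0.00052), AGPAT2, which makes phosphatidic acid, by 0.37 (edgeR adjusted p = 1.06e-05) and MBOAT2 by 0.20 (edgeR adjusted p = 0.00518). MBOAT2 was not called by limma (adjusted p = 0.0694 and 0.0673 on TPM and 0.0511 on FPKM). Among 11 genes of ether phospholipid synthesis, 4 fell and none rose (36.4% called, median -0.02), with PEX5 at -0.20, SELENOI at -0.16 and PEX19 at -0.13 (edgeR adjusted p = 0.00089, 0.00221 and 0.0119). PEX19 was not called without 4HC replicate 3 (edgeR adjusted p = 0.0545), and on FPKM neither PEX19 nor SELENOI was called (limma adjusted p = 0.0564 and 0.0694). PEX5 and PEX19 serve peroxisomal import, and SELENOI is an ethanolamine phosphotransferase.

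Of 22 genes of lipid peroxidation and its defence, 3 rose and 7 fell (45.5% called, median -0.04). CHAC1, which degrades glutathione, fell from 9.29 ± 1.15 to 6.78 ± 0.568 CPM (log2 fold change -0.46, edgeR adjusted p = 0.00164), and TFRC, the transferrin receptor, from 428 ± 13.4 to 336 ± 13.4 CPM (log2 fold change -0.35, edgeR adjusted p = 2.54e-12). COQ2, an enzyme of coenzyme Q synthesis, rose by 0.34 (edgeR adjusted p = 1.16e-05). Of 5 genes that supply electrons to the desaturases through cytochrome b5, 1 rose (20% called, median -0.02). This was CYB5RL, at 0.24 (edgeR adjusted p = 0.00133), which was at -0.01 on log2 of TPM, with either pseudocount, and was not called there.

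Of 22 transcriptional regulators of fatty acid genes, 1 rose and 3 fell (18.2% called, median -0.05). MBTPS2, a protease that activates SREBP factors, fell from 66.7 ± 2.09 to 53.1 ± 3.9 CPM (log2 fold change -0.33, edgeR adjusted p = 6.7e-07). SREBF1, the SREBP gene that drives FASN and SCD in many tissues, fell from 331 ± 10.1 to 292 ± 16 CPM (log2 fold change -0.18, edgeR adjusted p = 4.33e-05). RXRA, a nuclear receptor, was at 0.15 (edgeR adjusted p = 0.0383), and in DESeq2 its adjusted p was 0.145, in a range of 0.0184 to 0.2 over 15 alternatives. The list with the largest share of calls was cholesterol synthesis and uptake, with 5 of 21 genes higher and 10 lower (71.4% called, median -0.10). SQLE, the squalene epoxidase, fell by 0.39 on the log2 scale, while TM7SF2, a sterol reductase, rose by 0.31 (edgeR adjusted p = 1.72e-10 and 8.23e-07).

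Of 28 genes of fatty acid oxidation, 5 rose and 3 fell (28.6% called, median 0.02). Among the genes called, the largest changes were those of ACADS (0.30), ECI1 (0.23) and ACADSB (-0.17), enzymes of mitochondrial oxidation (edgeR adjusted p = 0.0188, 0.000798 and 0.00303). On FPKM ACADSB was not called (limma adjusted p = 0.0573). ACADS had an adjusted p of 0.1 in DESeq2, in a range of 0.00248 to 0.155 over 15 alternatives. In DESeq2, 3 genes of this list were called. DESeq2 also called fewer genes over all genes tested, 1717 higher and 1623 lower against 2379 and 2118 in edgeR. Of 17 genes of triglyceride storage and lipid droplets, 7 rose and 1 fell (47.1% called), and their median of 0.19 was the highest of the 10 lists. LPIN3, a phosphatidate phosphatase that makes diacylglycerol, was at 13.4, 13.5 and 11.8 CPM in control and at 27.8, 25.9 and 24.9 CPM in 4HC, and all 4HC samples were higher. Its log2 fold change was 1.02 (standard error 0.0767, edgeR adjusted p = 4.13e-16). LPIN2, its paralog, rose by 0.39 (edgeR adjusted p = 4.54e-06). CIDEB, a droplet protein, was at 0.39 (edgeR adjusted p = 0.0181), with an adjusted p of 0.0939 in DESeq2 (0.013 to 0.863 over 15 alternatives) and a value of 0.04 on log2 of TPM with a pseudocount of 1. In DESeq2, 4 genes of this list were called, beside the same DESeq2 totals over all genes.

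**Figure D5:**
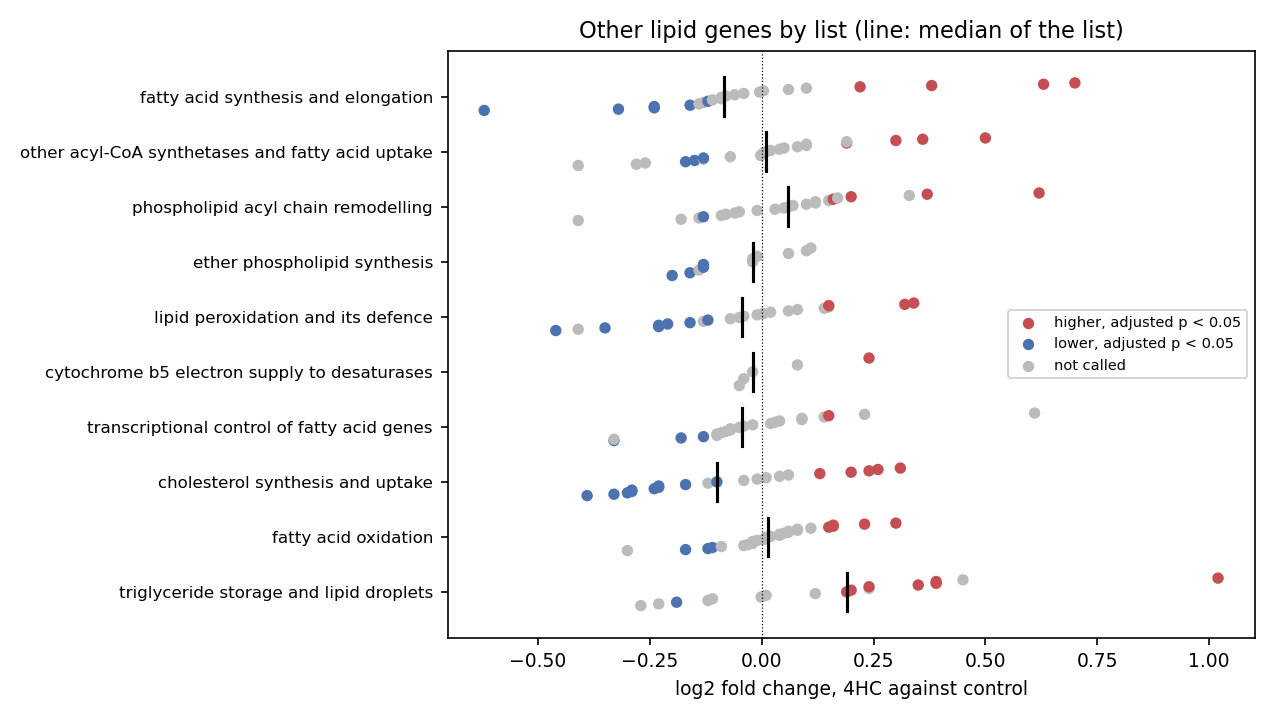
Log2 fold change of 4HC against control (horizontal axis) of the tested genes of 10 lists (rows), red for higher and blue for lower at an adjusted p under 0.05 and grey for not called, with the median of a list as a black line. The medians lie between -0.10 for cholesterol synthesis and uptake and 0.19 for triglyceride storage, and LPIN3 stands at 1.02.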

How the data were processed

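Total RNA was sequenced from 3 control and 3 4HC samples of COV434 cells. The authors filtered reads with SOAPnuke, and the submitters' processing notes name HISAT2, Bowtie2, RSEM 1.3.1, DESeq2 1.4.5 and GRCh38.p13, with no roles given. The authors deposited expected counts (estimated counts, not normalized, 85.5% of them whole) of 16798 genes and 79213 transcripts, and also TPM and FPKM values, which scale for length and library size. Their fold changes and p-values were not used, and neither was a second gene table with the same values. Rounded counts were compared by edgeR 4.0.16 under R 4.3.3 (TMM, filterByExpr, quasi-likelihood test, condition as the only term). Benjamini-Hochberg adjustment was over all 12368 genes or 42216 transcripts. A check on simulated counts came first, with a spread between samples near that of the genes. It did not cover the larger spread of the transcripts. Alternatives were DESeq2 1.42.0, its size factors, library size alone, other filters, the replicate number as a block, limma 3.58.1 on TPM or FPKM, and each sample left out. Exon overlaps and codons came from GENCODE release 29, and upstream windows from RefSeq. Named were all members, their tested transcripts, up to 3 genes per list with the largest change among those called, and the granulosa markers, except 1 gene that is not reported here. ACLY, ACACA, ACSS2, ACACB, genes that share exon bases with members, and the marker genes DCN and LUM were named outside this rule, after their values were seen. The members, lists and tests were chosen with earlier results of these data known.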

Additional observations from a re-analysis of the deposited data

How the results depend on the processing

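The directions and calls of ACSL3, LPCAT3, SCD, FADS1 and FASN were the same in all 15 alternatives, with edgeR, DESeq2 or limma adjusted p-values of at most 0.0111. ACSL6 was not called by limma with a pseudocount of 1, at 0.24 on TPM (adjusted p = 0.0616) and 0.18 on FPKM (adjusted p = 0.0585), and with single samples left out its log2 fold change was 0.93 to 1.39. ACSL4 ranged from -0.17 to -0.08 with samples left out, and was called without control replicate 3 or 4HC replicate 3. ACSL1, which was not called in any alternative, was at -0.0011 in DESeq2, -0.0012 with its size factors and -0.0031 and -0.0032 on TPM with pseudocounts of 1 and 0.1, and at -0.02 to 0.04 with samples left out. FADS2, also never called, ranged from -0.00084 to 0.05 with samples left out. The cause of these changes was not tested.

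Over all genes, 1343 were lower with limma on FPKM (2118 in edgeR). With library size alone 2725 were higher and 1735 lower, and DESeq2 gave 1717 and 1623. The calls in phospholipid remodelling (5) became 8 with library size alone and 4 to 8 with samples left out, 8 being the count without control replicate 2. Those in ether phospholipid synthesis (4) became 1 on FPKM, and the 1 of cytochrome b5 became 0 on TPM with either pseudocount and on FPKM, and 1 to 2 with samples left out. Those in fatty acid oxidation (8) became 3 in DESeq2, 4 on TPM with either pseudocount, 5 on FPKM and 4 to 7 with samples left out, the lowest without control replicate 3 or 4HC replicate 2. Those in triglyceride storage (8) became 4 in DESeq2 and 5 to 8 with samples left out, 5 without 4HC replicate 2. CYB5RL was at -0.01 on TPM.

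Transcripts that were not called changed sign in NM_004458 of ACSL4 (-0.00059 in DESeq2, -0.00058 with its size factors, and -0.43 to 0.24 with samples left out) and NM_001381884 of ACSL1 (-0.08 with the replicate block, and -0.86 without 4HC replicate 2 to 0.81). With samples left out they also did so in NM_001995 of ACSL1 (-0.03 to 0.15), NM_001318510 of ACSL4 (-0.25 to 0.05), XM_011545022 of FADS1 (-0.10 to 2.15) and NM_001281501 of FADS2 (-0.15 to 0.08).

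Whether the replicate numbers of the titles pair the samples is not known. Deviations of same-numbered samples correlated at 0.00866, 0.0694 and 0.0302, and those of differently numbered samples at -0.08 to 0.0455. Deviations within a group of 3 sum to 0, so that these values cannot decide on a pairing. With the replicate block 3 members were higher and 3 lower, as without it, beside 2259 and 1954 of all genes, and NM_004104 of FASN had an adjusted p of 0.114. The depth limited ACSL5 and ACSL6, and outlying samples were not tested for in groups of 3.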
